A study of Rattus norvegicus with 12 samples.

Results

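Prostaglandin synthesis and receptors were examined through 10 genes chosen by name: the cyclooxygenases Ptgs1 and Ptgs2, the terminal synthases Ptges and Ptgis, the inactivating enzyme Hpgd, the prostaglandin E2 receptors Ptger1, Ptger2, Ptger3 and Ptger4, and the prostaglandin F receptor Ptgfr. These genes, and the other gene lists below, were chosen with earlier results of these data known. All 10 were measured, among 18166 genes on the arrays. RNA came from urinary bladders of female Sprague Dawley rats aged about 3 months. The 6 sham samples came after surgery alone, at a day that their labels do not give. The 6 denervated samples came after surgery plus freezing of the ganglia on both sides (the pelvic supply, by the source label), at day 10. Each sample was hybridised to 1 array, and no label says that each array was a separate animal, so p-values measure the spread between these samples.

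Prostaglandins are short-range lipid signals. Phospholipases free arachidonic acid from membranes, cyclooxygenases turn it into prostaglandin H2, and terminal synthases turn that into prostaglandin E2, prostacyclin or thromboxane. In the bladder, urothelium and muscle both release prostaglandin E2, which acts on muscle tone and on the sensory nerves that report filling. Its receptors differ in their coupling: EP1 (Ptger1) raises calcium, EP2 (Ptger2) and EP4 (Ptger4) raise cyclic AMP, and EP3 (Ptger3) mainly lowers it.

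Levels are log2 expression values, and differences are denervated minus sham means. A gene is called, or said to rise or fall, where its limma adjusted p, taken over all 18166 genes, was under 0.05. Array medians lay between 5.82 and 5.90. Denervated replicate 2 stood apart on the first principal component, where it scored -5.84. The remaining 5 denervated arrays scored 25.9 to 42.5 and the sham arrays -30.2 to -22.5, so results are also given without it. By its label the tissue is nearly all smooth muscle. Smooth muscle genes were bright (Myh11 13.1 in sham), but so were urothelial ones (Upk1a 12.7, Upk2 12.6), so urothelial RNA was present in these samples.

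Of the 10 genes, Ptger4, Ptgis and Ptger2 rose and Hpgd and Ptger1 fell, while Ptgs1, Ptgs2, Ptges, Ptger3 and Ptgfr were not called. The change of receptors was thus in opposite directions: EP1 fell to 60.5% of the sham level while EP4 rose 1.46-fold and EP2 1.21-fold. Neither cyclooxygenase was called. The 5 calls of 10 (50%) stand beside 28.7% of all genes. By direction, 3 of 10 were called higher (11.9% of all genes) and 2 of 10 lower (16.9% of all genes). The median change of the 10 was 0.10, and that of all genes -0.04. Sham and denervated values were fully separate for 1 of the 10, Ptger1 (lower), against 13.3% of all genes, 7.59% of them lower and 5.76% higher.

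**Figure D1:**
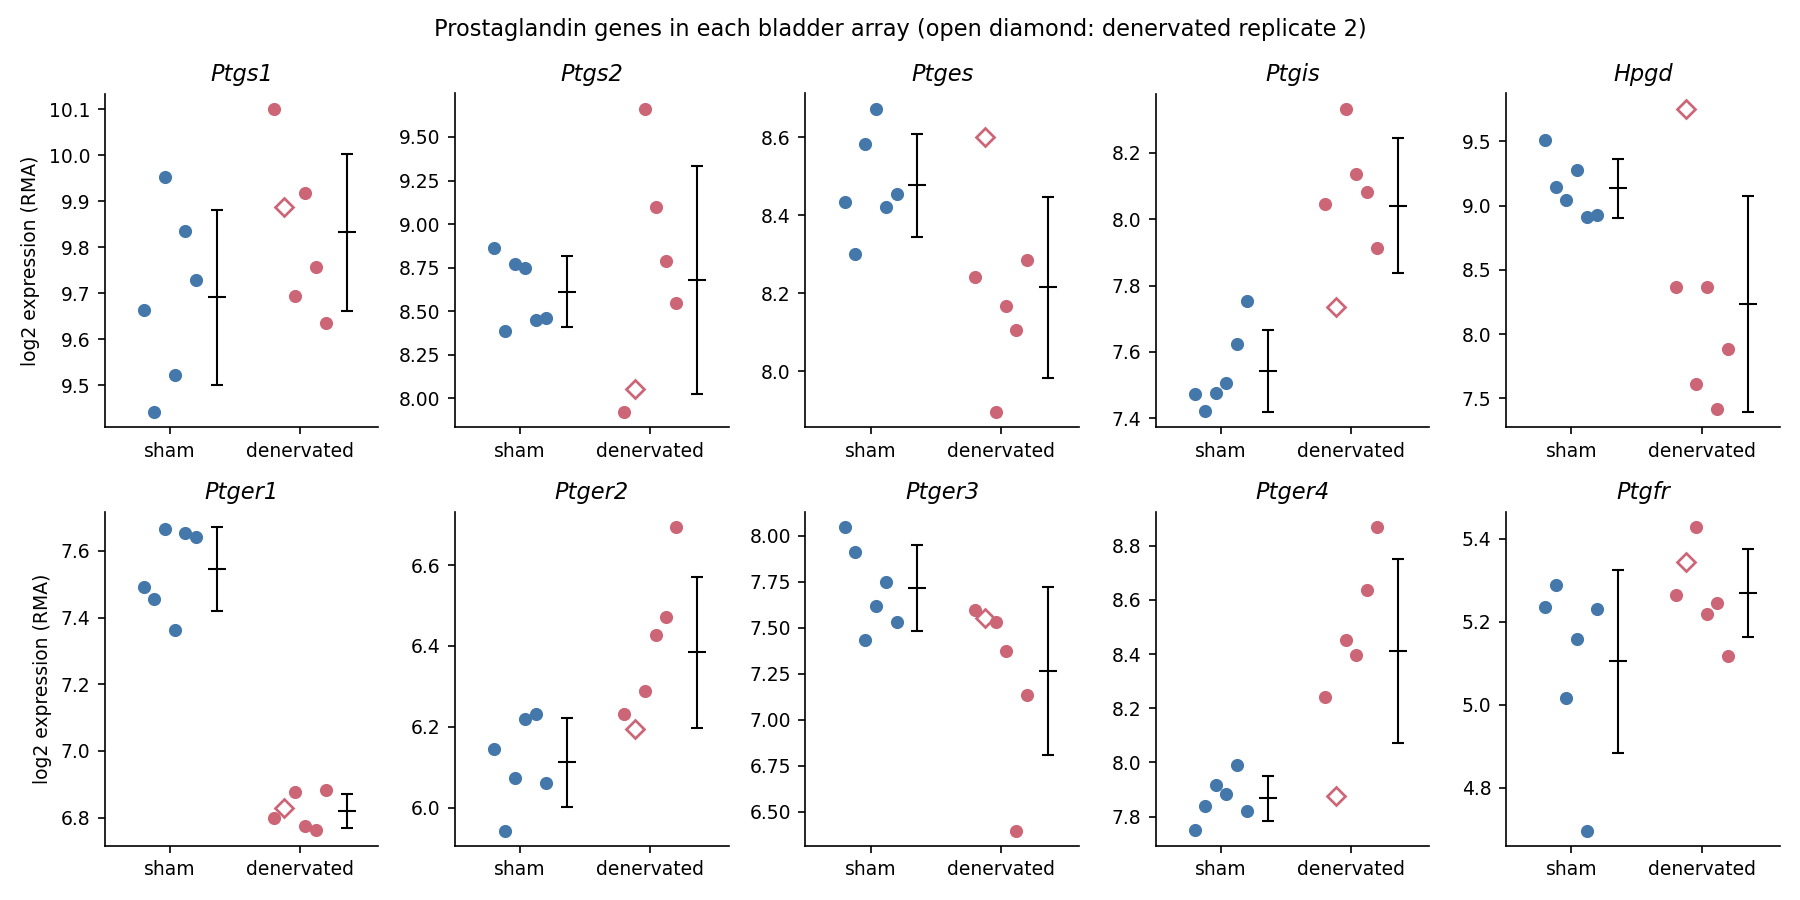
Log2 expression (vertical axis, a separate scale in each panel) of the 10 prostaglandin genes in 6 sham (blue) and 6 denervated (red) arrays, 1 point per array, with the mean and SD as a black bar. The open diamond is denervated replicate 2. All 6 denervated values of Ptger1 lie below all sham values, and the denervated values of Ptgs2 spread from 7.92 to 9.66.

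The regions upstream of Ptger1 and Hpgd, the genes that fell, and of Ptgs2, the inducible cyclooxygenase, are shown to compare what lies before genes that moved and one that spread widely. They come from RefSeq (assembly GRCr8), cover the 250 bases before the annotated start, and are written 5′ to 3′. The promoter table matched 9 of the 10 genes, all but Ptgis. Capitals mark matches on either strand to GGGCGG (GC box), AGAACA (only a part of a glucocorticoid response element), TTGCNNAA (C/EBP) and CACGTG (E box, a motif added after the sequences were seen).
Ptger1 promoter, minus strand, chr19:41378285-41378534: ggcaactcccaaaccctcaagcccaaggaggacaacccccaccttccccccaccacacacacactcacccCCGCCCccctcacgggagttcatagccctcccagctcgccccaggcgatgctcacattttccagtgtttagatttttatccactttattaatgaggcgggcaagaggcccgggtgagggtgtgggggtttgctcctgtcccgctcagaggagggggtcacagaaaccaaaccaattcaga
Hpgd promoter, minus strand, chr16:39034832-39035081: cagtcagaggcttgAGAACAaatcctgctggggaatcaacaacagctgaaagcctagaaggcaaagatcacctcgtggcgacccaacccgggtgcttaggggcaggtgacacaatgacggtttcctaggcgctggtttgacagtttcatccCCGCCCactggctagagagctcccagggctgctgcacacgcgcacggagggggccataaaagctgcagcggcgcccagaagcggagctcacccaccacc
Ptgs2 promoter, plus strand, chr13:64713813-64714062: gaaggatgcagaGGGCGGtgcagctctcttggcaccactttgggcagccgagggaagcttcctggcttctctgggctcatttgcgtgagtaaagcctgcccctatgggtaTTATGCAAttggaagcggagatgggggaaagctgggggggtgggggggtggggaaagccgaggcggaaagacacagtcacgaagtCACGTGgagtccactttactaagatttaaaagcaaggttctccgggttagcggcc

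Ptger1 held 1 GC box match, Hpgd 1 GC box and 1 AGAACA match, and Ptgs2 1 GC box, 1 C/EBP and 1 E box match. GC box matches were found before 5 of the 9 genes (Hpgd, Ptger1, Ptger3, Ptges and Ptgs2) and in 30.5% of all 33469 promoter windows. Matches to C/EBP were found before Ptges, Ptgfr and Ptgs2 (9.22% of all windows), to AGAACA before Hpgd and Ptges (17.5%) and to the E box before Ptgs2 alone of the 9 (5.59%). In Ptges the C/EBP and AGAACA matches shared a base. No match to TATAAA (the TATA box), to TGACGTCA (the cyclic AMP element), to the part of it TGACGTC (a shorter form), to TGANTCA (the AP-1 site), to GCGTGGGCG (the Egr site), to the NF-kB motif or the CArG box was found in these 9 windows, which says only that those letters are not there.

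The first step of synthesis, carried out by the cyclooxygenases, had no call. Ptgs1, the constitutive enzyme, ran from 9.44 to 9.95 in sham (median 9.70) and from 9.64 to 10.10 in denervated arrays (median 9.82). The groups overlapped, and the difference was 0.14 ± 0.10 (SE, n = 6 per group, limma adjusted p = 0.331), with a 95% interval of -0.07 to 0.36.

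Ptgs2, the cyclooxygenase induced by cytokines, stretch and growth factors, ran from 8.39 to 8.86 in sham (median 8.61) and from 7.92 to 9.66 in denervated arrays (median 8.67). Replicates 1 and 2 lay below every sham array and replicates 3 and 4 above every sham array, so the means hardly differed (0.07 ± 0.25, limma adjusted p = 0.877, 95% interval -0.47 to 0.60). The sign of the mean difference turned without denervated replicate 3 (-0.13) or 4 (-0.02). The SD was 0.653 in denervated and 0.203 in sham arrays, a ratio of 3.22, which 10.5% of all genes reached or passed. Over all genes the median ratio was 1.48.

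Other rapidly induced genes were set beside Ptgs2 array by array. Denervated replicate 3, highest for Ptgs2 (1.05 above its sham mean), was also the highest denervated array for Fos (0.57), Egr1 (1.25) and Dusp1 (1.40), immediate early genes of transcription and of kinase shut-off. Denervated replicate 1, lowest for Ptgs2 (-0.69), was lowest for Fos (-0.44) as well, level with the lowest sham array. Dusp1 was lowest in replicate 2 (-0.78), as was Jun (level 9.12), and Egr1 in replicate 6 (-0.11). Sham arrays themselves ran from -0.43 to 0.41 for Fos, -0.50 to 0.64 for Egr1 and -0.44 to 0.24 for Dusp1. None of these genes was called with all arrays. Dusp1 was called higher without denervated replicate 2 (0.65, limma adjusted p = 0.0271). Their part in the spread of Ptgs2 was not tested. Il1b, a cytokine that induces Ptgs2, was highest in denervated replicate 6 (2.00) and lowest in replicate 3 (0.44).

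Terminal synthesis changed in parts. Ptgis, which makes prostacyclin, a relaxing and antithrombotic prostanoid, ran from 7.42 to 7.75 in sham (median 7.49) and from 7.73 to 8.33 in denervated arrays (median 8.06). Of the 6 denervated arrays, 5 lay above every sham array, and replicate 2 (7.73) lay just under the highest of them. Ptgis rose 1.41-fold, by 0.50 ± 0.09 (limma adjusted p = 0.00183), and by 0.56 without replicate 2. The call held without any single array (adjusted p at most 0.00555). Fibroblast markers moved in the same direction: 6 of 10 rose and 0 fell, with a mean of -0.15 to 0.17 around the sham mean in sham and 0.02 to 0.92 in denervated arrays, 0.02 being that of replicate 2. Endothelial markers did too, with 5 of 8 higher and 0 lower (-0.07 to 0.04 in sham, 0.19 to 0.54 in denervated arrays). The part of either in the rise of Ptgis was not tested.

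Ptges, the inducible synthase of prostaglandin E2, ran from 8.30 to 8.67 in sham (median 8.44) and from 7.90 to 8.60 in denervated arrays (median 8.20). Replicate 2, at 8.60, lay among the sham arrays, and the other 5 lay below all of them. With all arrays the gene was not called (-0.26 ± 0.10, limma adjusted p = 0.0769). Without replicate 2 it was called lower (-0.34 ± 0.09, adjusted p = 0.00798), as were 20.2% of all genes in that fit, with 14.4% higher and 34.5% called in either direction. The members called were then 3 higher and 3 lower.

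Breakdown was the step with the lowest value of the 10 changes. Hpgd encodes 15-hydroxyprostaglandin dehydrogenase, which starts the inactivation of prostaglandin E2 and F2alpha. It ran from 8.91 to 9.51 in sham (median 9.09) and from 7.42 to 9.75 in denervated arrays (median 8.12). Denervated replicate 2 was above every sham array and the other 5 were below every sham array. Hpgd fell to 53.5% of the sham level, by 0.90 ± 0.31 on the log2 scale, and only just passed the threshold (limma adjusted p = 0.0446). Leaving out replicate 2 gave -1.21 ± 0.18 (adjusted p = 0.000228). Leaving out any one of the other 11 arrays lost the call (adjusted p 0.0594 to 0.0996), as did the exact rank-sum test (adjusted p = 0.158), a further quantile normalization (0.0515), trend and robust eBayes (0.0519) and all probe sets (0.0784).

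Smooth muscle markers were, like Hpgd, highest among denervated arrays in replicate 2, but there their mean was not above the sham arrays. Of 10 measured, 7 fell, 1 (Smtn) rose and 2 were not called, and their mean deviation from sham was -0.08 in denervated replicate 2, -0.77 to -0.30 in the other 5 and -0.08 to 0.12 in sham arrays. Schwann cell markers also stood apart in that array. Of 8 measured, 5 fell and 0 rose, and their mean deviation was -0.38 in denervated replicate 2, -1.18 to -0.86 in the other 5 and -0.11 to 0.06 in sham arrays. Replicate 2 was also the denervated array nearest to the sham mean for fibroblast (0.02), endothelial (0.19), macrophage (0.93) and neuron (-0.18) markers. It was not the nearest for urothelial, lymphocyte, mast cell and granulocyte or skeletal muscle markers. In whole tissue, fewer cells of a type and less RNA per cell cannot be told apart, and the part of smooth muscle or Schwann cells in the fall of Hpgd was not tested.

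Among the receptors, the clearest difference was that of Ptger1, whose product EP1 is coupled to calcium and to bladder sensation. It ran from 7.36 to 7.67 in sham (median 7.57) and from 6.76 to 6.88 in denervated arrays (median 6.81). All 6 denervated arrays, replicate 2 (6.83) included, lay below all sham arrays, with an SD of 0.052 against 0.126 in sham. Ptger1 fell by 0.72 ± 0.06 on the log2 scale (95% interval -0.86 to -0.59, limma adjusted p = 3.09e-05) and ranked 20 of 18166 genes by p. The call held in every setting tried, with adjusted p of at most 0.0162.

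Urothelial markers fell with Ptger1. Of 15 measured, 14 fell and 1, the basal keratin Krt14, rose (1.35). Their mean deviation was -0.73 to -0.41 in denervated arrays, -0.48 in replicate 2, and -0.05 to 0.12 in sham arrays. The deviations of Ptger1 in the denervated arrays were -0.78 to -0.66. Neuron and axon markers were lower in part (4 of 11 fell, 1 rose), with a mean of -0.63 to -0.18 in denervated and -0.10 to 0.20 in sham arrays. The part of either in the fall of Ptger1 was not tested.

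**Figure D2:**
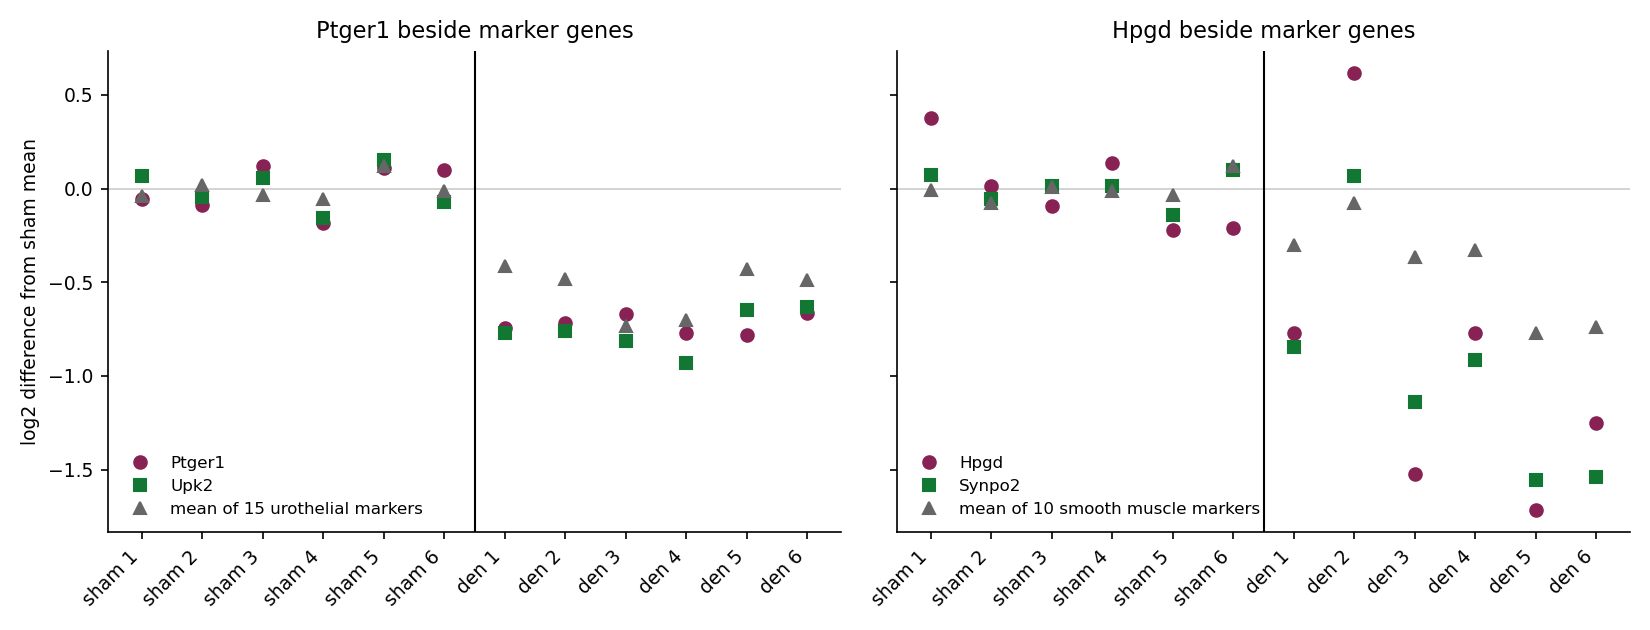
Log2 difference from the sham mean (vertical axis) in each of the 12 arrays (horizontal axis; den, denervated) for Ptger1, Upk2 and the mean of 15 urothelial markers (left), and for Hpgd, Synpo2 and the mean of 10 smooth muscle markers (right). Upk2 and Synpo2 were among the genes whose profiles over these same arrays lay nearest to Ptger1 and Hpgd. Their closeness in the figure therefore follows from that search. Upk2 is also among the 15 urothelial markers, and Synpo2 among the 10 smooth muscle markers, whose means are shown. In denervated replicate 2 Ptger1 lies at -0.72, with the other denervated arrays, while Hpgd lies at 0.62, above all sham arrays.

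The receptors that raise cyclic AMP rose. Ptger4 (EP4) ran from 7.75 to 7.99 in sham (median 7.86) and from 7.88 to 8.87 in denervated arrays (median 8.42). Replicate 2, at 7.88, lay within the sham range and the other 5 above it. The rise was 0.54 ± 0.13 (limma adjusted p = 0.00738) and 0.65 ± 0.10 without replicate 2 (adjusted p = 0.00028). The call was lost with the exact rank-sum test (adjusted p = 0.0576).

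Ptger2 (EP2) was dimmer, near the array medians, and ran from 5.94 to 6.23 in sham (median 6.11) and from 6.19 to 6.69 in denervated arrays (median 6.36). The groups overlapped, with 4 of 6 denervated arrays above every sham array. Ptger2 rose by 0.27 ± 0.09 (limma adjusted p = 0.0330). The call was lost when sham replicate 1, 2, 3 or 6 or denervated replicate 4 or 5 was left out (adjusted p 0.0518 to 0.0760). It was also lost with a further quantile normalization (0.0645), the exact rank-sum test (0.0576), all probe sets (0.0648) and the test against a 1.2-fold change. Its 2 probe sets hold identical values, so they are 1 measurement.

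Macrophage markers rose too, 12 of 12 of them. Their mean deviation from sham ran from 0.93 (replicate 2) to 1.74 in the denervated group and from -0.07 to 0.10 in the sham group. In denervated replicate 2 Ptger4 (0.01) and Ptger2 (0.08) lay within their sham ranges, as did Ptger2 in denervated replicate 1 (0.12). Lymphocyte markers rose in part (5 of 9, 0 fell), from 0.35 to 1.43 in denervated and -0.08 to 0.10 in sham arrays. Their part in the rise of Ptger4 and Ptger2, which immune cells also express, was not tested.

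The remaining receptors were not called. Ptger3 (EP3) ran from 7.43 to 8.05 in sham (median 7.68) and from 6.40 to 7.60 in denervated arrays (median 7.45). All 6 denervated arrays lay under the sham median and 3 under the lowest sham array, with replicate 5 at 6.40 the farthest. The difference was -0.45 ± 0.19 (limma adjusted p = 0.0903, 95% interval -0.85 to -0.05). Ptgfr, the calcium-coupled prostaglandin F receptor, was below the array medians, from 4.70 to 5.29 in sham (median 5.20) and from 5.12 to 5.43 in denervated arrays (median 5.26). It differed by 0.17 ± 0.10 (limma adjusted p = 0.233), and its signal over background is unknown.

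**Figure D3:**
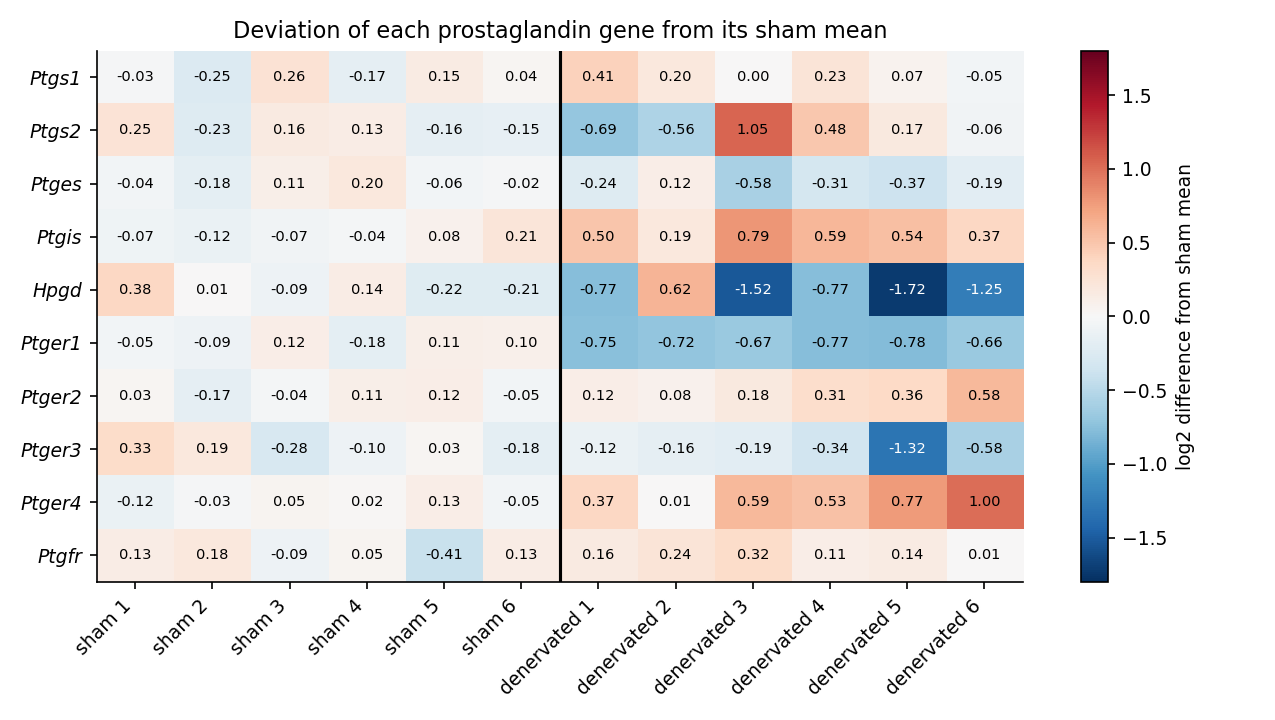
Log2 difference of each of the 10 genes (rows) from its own sham mean in each of the 12 arrays (columns); red is higher and blue lower, and the value is printed in each cell. In denervated replicate 2 Ptger4 (0.01) and Ptgis (0.19) are nearer the sham arrays than in the other denervated arrays, and Hpgd (0.62) lies on the opposite side of the sham mean.

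Pairs of genes with opposed roles, and the pair of cyclooxygenases, were also compared within each array, as the change of their log2 ratio. EP4 relative to EP3 rose by 0.99, or 1.99-fold (exact two-sided permutation p = 0.00433, adjusted over 3 ratios p = 0.0130). Around the sham mean the ratio ran from -0.45 to 0.33 in sham and from 0.17 to 2.08 in denervated arrays, 5 of 6 of which lay above every sham array. With sham replicate 1 left out the rise was 0.90 and no longer passed (adjusted p = 0.0519).

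The ratio of Ptges, which makes prostaglandin E2, to Hpgd, which inactivates it, rose by 0.64 and did not pass (exact permutation p = 0.0498, adjusted p = 0.0747). It was above every sham array in 5 denervated arrays and below every sham array in replicate 2 (-0.50). Without replicate 2 the rise was 0.87 (adjusted p = 0.00325, from the smallest p that 6 against 5 arrays can give, 0.00216). Both genes had lower means in denervated arrays, and the mean of Hpgd was lower by more. The ratio of Ptgs2 to Ptgs1 differed by -0.08 (exact permutation p = 0.842, adjusted p = 0.842). It ran from -1.10 to 1.04 in denervated and from -0.31 to 0.30 in sham arrays.

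**Figure D4:**
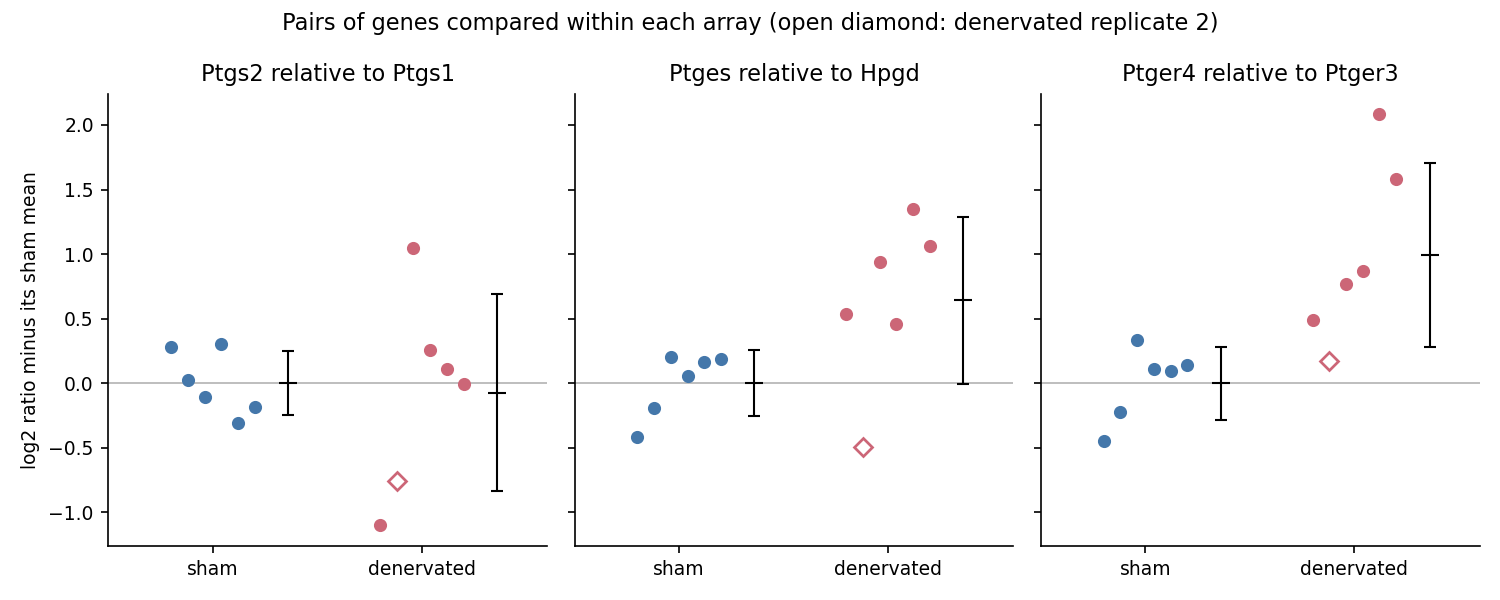
Log2 ratio of a pair of genes in each array, minus the sham mean of that ratio (vertical axis), for 6 sham (blue) and 6 denervated (red) arrays, with mean and SD as a black bar and denervated replicate 2 as an open diamond. The ratio of Ptger4 to Ptger3 lies above every sham array in 5 of 6 denervated arrays.

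The rest of the pathway was counted by step. Of 26 other genes listed, 24 were measured, of which 4 rose (11.9% of all genes), 7 fell (16.9% of all genes) and 13 were not called, with a median change of -0.15. Without denervated replicate 2, 13 of the 24 were called in place of 11, beside 34.5% of all genes. By step, 2 of 7 genes for release and 3 of 8 other synthases were called, shares near the 28.7% of all genes. Larger shares were called among few genes: 3 of 5 for transport and breakdown and 3 of 4 in the group of other receptors. That group counts Ptgfrn, which is not itself a prostanoid receptor. Pla2g4b and Ptgdr had no probe set named for them alone and were not used here. Among genes that release arachidonic acid, the secreted phospholipases Pla2g2a (-2.80 ± 0.41, limma adjusted p = 0.000426) and Pla2g5 (-1.46 ± 0.16, adjusted p = 9.84e-05) fell. Pla2g2a ran from 12.31 to 12.71 in sham and from 8.53 to 11.84 in denervated arrays. Its highest denervated value was that of replicate 2, and without that array the change was -3.22. Pla2g5 ran from 7.19 to 7.86 in sham and from 5.49 to 6.63 in denervated arrays. The cytosolic phospholipase Pla2g4a, which supplies the cyclooxygenases, was not called (-0.21, adjusted p = 0.0603), nor were the other 4, which lay between -0.07 and 0.19. Without denervated replicate 2, Pla2g4a was called lower (-0.24, adjusted p = 0.0353) and Daglb, which makes a lipid precursor of arachidonic acid, higher (0.25, adjusted p = 0.0483).

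Among the other synthases, Tbxas1, the thromboxane synthase, rose 2.84-fold, from 6.86 to 7.47 in sham to 8.00 to 9.10 in denervated arrays, with no overlap (limma adjusted p = 0.00011). Hpgds, which makes prostaglandin D2 in blood cells, fell by 0.86 ± 0.19 and Ptges3, a cytosolic prostaglandin E synthase that is also a cochaperone, by 0.26 ± 0.06. The other 5 (Ptges2, Ptgds, Prxl2b, Cbr1 and Akr1b1) were not called. Macrophage markers, given above, rose in the same arrays as Tbxas1, and their part in it was not tested.

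Of 5 genes for transport and later breakdown, the 3 prostaglandin reductases fell, Ptgr2 by 0.51 ± 0.06 (limma adjusted p = 0.000186), Ptgr3 by 0.48 ± 0.10 and Ptgr1 by 0.44 ± 0.10. They act on the 15-keto product of Hpgd, so genes for successive steps of inactivation were lower. In denervated replicate 2 Ptgr1 (7.14) and Ptgr2 (8.20) lay below every sham array, unlike Hpgd, and Ptgr3 (7.12) lay within the sham range. The uptake carrier Slco2a1 (-0.27) and the exporter Abcc4 (0.01) were not called.

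Of the other receptors, the prostacyclin receptor Ptgir rose 2.02-fold (1.01 ± 0.17, limma adjusted p = 0.00089), from a sham range of 5.61 to 6.13 to 6.14 to 7.31. The thromboxane receptor Tbxa2r rose by 0.31 ± 0.07 and Ptgfrn, a membrane protein that lowers ligand binding by the F receptor, by 0.53 ± 0.11. Synthase and receptor therefore both rose for prostacyclin (Ptgis and Ptgir) and for thromboxane (Tbxas1 and Tbxa2r). The prostaglandin D2 receptor Ptgdr2 was not called (0.08).

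**Figure D5:**
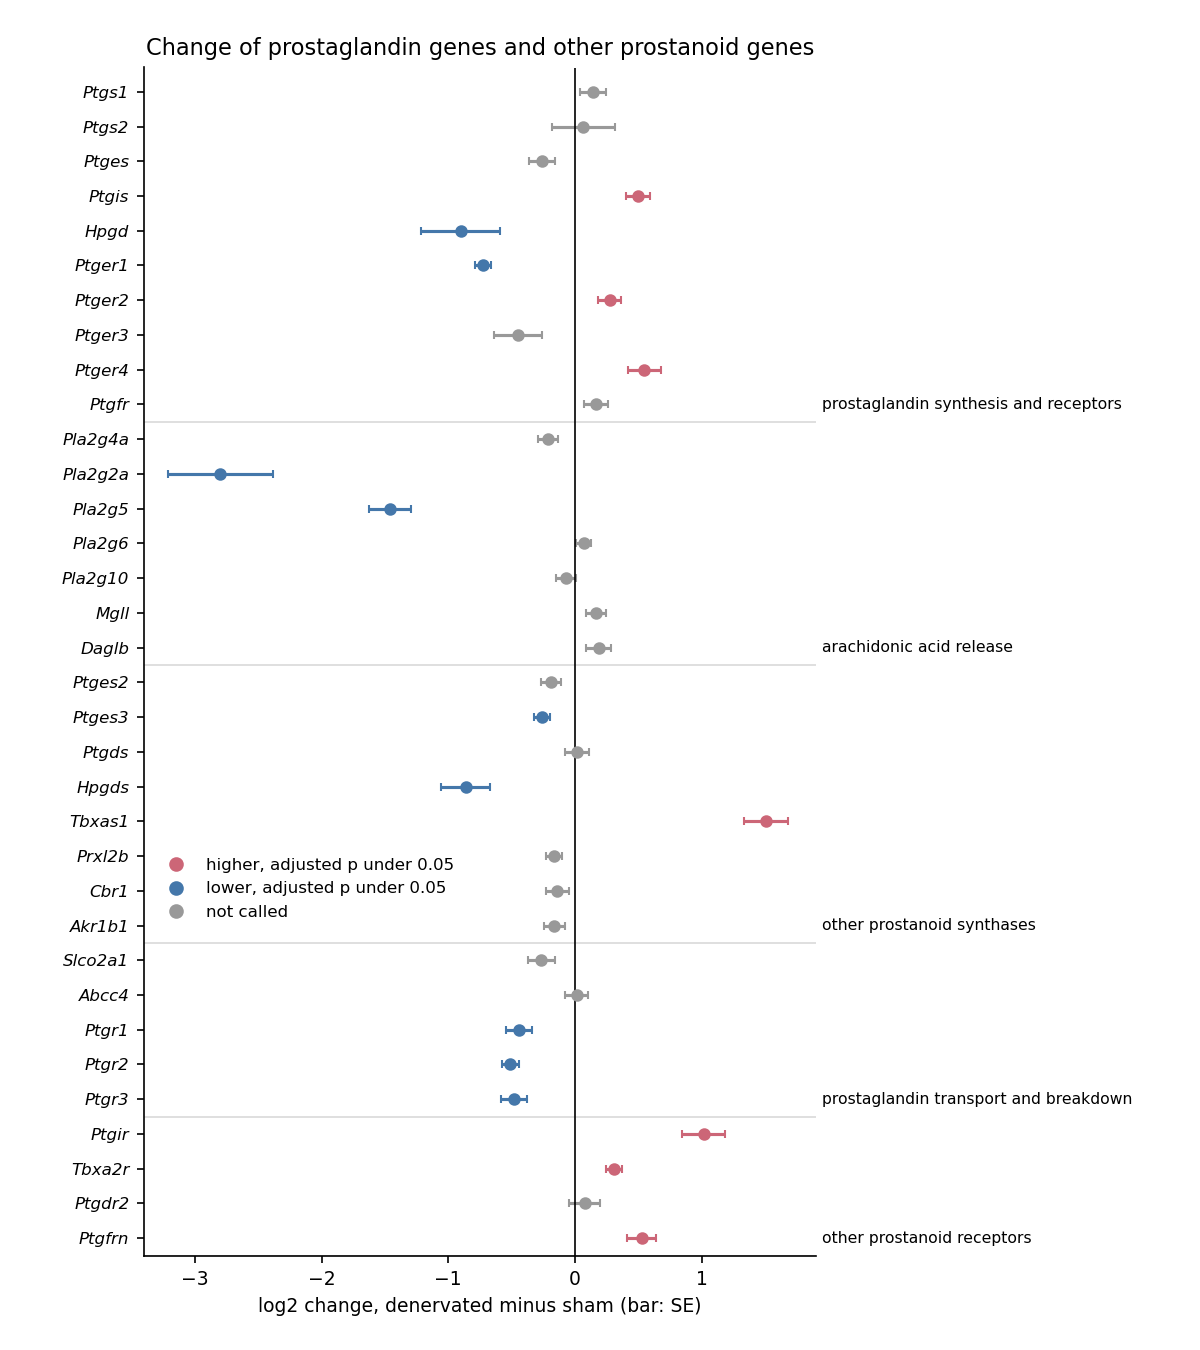
Log2 change (horizontal axis, denervated minus sham, with SE as a bar) of the 10 prostaglandin genes and 24 other prostanoid genes, grouped by role; red marks genes called higher, blue genes called lower and grey genes not called. The 3 reductases Ptgr1, Ptgr2 and Ptgr3 lie on the lower side with Hpgd, and Ptgir, Tbxa2r and Ptgfrn on the higher side.

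Genes that induce or restrain prostaglandin synthesis were counted as well. Of 12 measured inducers of Ptgs2 and Ptges, 5 rose (11.9% of all genes) and 0 fell (16.9% of all genes), with a median of 0.29. The cytokine Il1b rose by 0.88 ± 0.23 (limma adjusted p = 0.0121), its receptor Il1r1 by 0.55, Il6 by 0.43 and Tnf by 0.37. In sham arrays the means of Il1b (5.36), Tnf (5.55) and Il6 (4.61) lay below the array medians. Il6 did so in denervated arrays too (5.04). Signal over background is unknown for these cytokines. Ptgs2 itself was not called. Nor was Ptges with all arrays (-0.26), though it was called lower without denervated replicate 2 (-0.34, limma adjusted p = 0.00798). Of 8 genes that restrain prostaglandin synthesis, 3 were called, a share near the 28.7% of all genes. Of these, 2 rose, Anxa1 (0.55), a protein induced by glucocorticoids, and Socs3 (0.47), a feedback inhibitor of cytokine signalling. The glucocorticoid receptor Nr3c1 fell by 0.37 ± 0.09 (limma adjusted p = 0.0070).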

How the data were processed

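The authors deposited 1 table of log2 values, 36685 probe sets by 12 arrays, which came from RMA in Affymetrix Expression Console 1.4.1.46, per the submitters' processing notes. RMA corrects background, quantile-normalizes and summarises probes. The genome build is not given in the sources used here. The table has no detection calls. Precision is limited by how many arrays there are.

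Probe sets with exactly 1 gene symbol on the platform table (18511) were used, the one with the highest mean per gene, which left 18166 genes. Groups came from sample titles. Denervated and sham arrays were compared with limma 3.58.1 in R 4.3.3 (lmFit, eBayes, two-sided, Benjamini-Hochberg over all genes, threshold 0.05). Ratios were tested by exact permutation over 924 assignments. The limma code was tested on simulated data. The 10 genes and the lists were chosen with earlier results of these data known. All 10 are named whatever their values; of the other lists, up to 4 called genes with the largest absolute change, and further ones chosen after their values were seen. Alternatives covered normalization, dim genes, variance model, test, probe set choice, replicate block and leaving out each array. Same-numbered sham and denervated arrays did not deviate together (correlations across genes -0.11 to 0.10), so numbers were not used as pairs. No batch or scan date was given in the sources used here.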

Additional observations from a re-analysis of the deposited data

How the results depend on the processing

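Ptger1 kept its direction and call in all 23 settings, and Ptgis in all but the test against a 1.2-fold change. Over the 228 values of the 10 genes, 194 kept direction and call, 29 lost the call, 3 gained it (all Ptges) and 2 turned sign, those of Ptgs2 without denervated replicate 3 (-0.13) or 4 (-0.02), in a range up to 0.22. Of the 10 genes, 3 were called higher, against 1 with the exact rank-sum test, 0 with the test against a 1.2-fold change, 2 with a further quantile normalization, with all probe sets and among genes brighter than the median gene (where Ptger2 was not tested), and 2 to 3 with an array left out. Called lower were 2, against 1 with a further quantile normalization, with trend and robust eBayes, with the exact rank-sum test, with the test against a 1.2-fold change and with all probe sets, and 1 to 3 with an array left out. The 1.2-fold test left 756 genes higher and 496 lower, against 2153 and 3063, and 5 of the other prostanoid genes, against 11; it asks for a larger change. EP4 relative to EP3 ran from 0.78 to 1.16 with an array left out. Ptges relative to Hpgd ran from 0.50 to 0.87. Ptgs2 relative to Ptgs1 ran from -0.30 to 0.13 and was 0.090 as a difference of medians (-0.08 with means). With the replicate number as a block, the exact sign-flip test of EP4 relative to EP3 (0.99) gave adjusted p = 0.0938, where 6 pairs cannot go below 0.0312 before adjustment; the block left the calls of the 10 genes at 3 higher and 2 lower and those of the other prostanoid genes at 12, and 1 of 6 sham arrays correlated best with its own number. Causes of these differences were not tested. Signal over background is unknown for all 10 genes.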

Other observations

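The genes with profiles most like those of called members were sought over all 12 arrays, each profile centred on its own sham mean, by the root mean square difference. No called member reached the log2 change of 1 first set for this, so the limit was lowered to 0.5 after the values were seen. For Ptger1 the nearest of all genes was the uroplakin Upk2, a protein of the urothelial surface (difference 0.0998, change -0.76), followed by Dhrs7 (change -0.71) and the sulfite oxidase Suox (0.105, change -0.73). In denervated replicate 2 these genes lay at -0.76, -0.49 and -0.64.

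For Hpgd the nearest were Mir143 (difference 0.238, change -0.95), Synpo2, an actin-binding protein of smooth muscle (0.260, change -0.99), and Akr1c19 (0.261, change -0.76). In denervated replicate 2 they lay above their sham means but within their sham ranges, at 0.27, 0.07 and 0.14. Hpgd, at 0.62, was there above every sham array. In the other 5 denervated arrays all of these genes lay below their sham means. The search used all these arrays, so this likeness follows in part from it. For Ptger4 the nearest were the tropomyosin gene Tpm3 (0.0632, change 0.56), Nfkbiz, an inducible regulator of NF-kB (0.0715, change 0.57), and Edem1, of protein quality control in the endoplasmic reticulum (0.0826, change 0.58). Their values in denervated replicate 2 were 0.05, 0.03 and 0.19, against 0.35 to 1.07 in the other 5 denervated arrays. These are descriptions of 12 arrays, with no test.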
